A study of Mus musculus with 96 samples.

Results

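Mitochondria carry ribosomes of their own, which translate the few proteins encoded by mitochondrial DNA, all of them core subunits of the oxidative phosphorylation complexes. Their ribosomal RNAs come from the mitochondrial genome, whereas every protein of the large and the small subunit is encoded in the nucleus, made in the cytosol and imported. The question set here was whether the transcripts of these proteins moved with genotype, with the day of disease or with proliferation. Members were the genes whose symbol in the probe annotation was Mrpl or Mrps followed by a number, each read from its brightest probe. There were 76 such genes of 16593 measured, 47 named for the large subunit (Mrpl) and 29 for the small subunit (Mrps), and they had 110 probes of 25697. The naming is older than the structures: Mrps30 and Mrps18a are now placed in the large subunit, Mrps36 is regarded as a component of the oxoglutarate dehydrogenase complex, and Mrpl58 is a peptidyl-tRNA hydrolase built into the large subunit. Where members are grouped by subunit below, the group is that of the symbol.

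The groups were male mice of strain C57BL/10.Q/rhd.Ncf1m1J (called mutant) and of strain C57BL/10.Q/rhd (called wild type), both with collagen induced arthritis. Ncf1 is the gene of a cytosolic part of the NADPH oxidase of phagocytes, and the mutation is carried in every cell. Whole spleen and whole blood were taken at day 15 or day 44 after immunisation, with no culture or cell selection, which gave 8 groups of 12 arrays from 48 mice, each made up of 6 mice from either experiment, I and II. The experiments used different RNA kits, and spleens of experiment II had been collected in RNALater, so experiment was a term of each fit. Unimmunised mice were not analysed here.

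Values are log2 of the normalised bead intensity. The 12 arrays of a group are of separate mice, and each mouse gave 1 spleen and 1 blood array, so that both tissues hold the same 48 mice. Differences are on the log2 scale, ± the standard error that limma gave, and compare 12 mice of a genotype with 12 at a day, or 24 with 24 over both days. A gene was called where the p-value, adjusted after Benjamini-Hochberg across the 16593 genes, was under 0.05. Ncf1 itself lay between 6.01 and 6.88 in the mutant spleens, against 6.66 to 7.91 in the wild type spleens. Of the markers of other cell types, 8 of 8 granulocyte precursor genes (median 1.82) and 6 of 7 red cell precursor genes (median 0.91) rose in mutant spleen, and 6 of 6 T cell genes (median -0.60) and 4 of 5 B cell genes (median -0.46) fell. Platelet genes rose in 3 of 4 (median 0.46), and exocrine pancreas genes were called in 0 of 11 (median -0.52). All markers but the pancreatic Prss2 were above the array median in spleen. In 6 spleens, 2 mutant and 4 wild type and 4 of them taken at day 15, the mean of 11 exocrine pancreas genes exceeded the median array of 6.48 by over 1 log2 unit. Of these 6, only a mutant day 15 spleen was of experiment II. These spleens were analysed, and results that change without them are given with both values.

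Among the 76 members, 69 had a mean above the median probe in spleen (6.36), and the same 69 were above the median probe in blood (6.21). The other 7, Mrpl19, Mrpl21, Mrpl32, Mrpl39, Mrpl45, Mrps14 and Mrps36, were at background in both tissues, so a change in them may not show here. The dimmest of these in spleen were Mrpl19 (5.89), Mrps36 (5.90) and Mrpl32 (5.91). The members were bright as a group: 56 of 76 in spleen and 57 of 76 in blood lay among the brightest 25% of genes, and the median member stood at the 85.95th percentile in spleen and the 86.3rd in blood. Mrps24 was the brightest in spleen (mean 12.31), followed by Mrpl23 (11.82), whose bacterial counterpart sits at the exit of the tunnel for the growing chain, and by the small subunit gene Mrps33 (11.46). In blood the brightest were Mrps24 (11.60), Mrpl33 (11.11) and Mrpl23 (10.74). A probe's brightness also depends on its sequence, so this order is one of probes and not of transcript numbers.

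The order of the members was almost the same in both tissues, with a Spearman correlation of 0.98 across the 76 genes, which share their probes. Mean values were higher in spleen than in blood for 72 of 76 members and for 69 of the 69 above background, with a median difference of 0.89 among those 69. The tissues had been normalised apart and the median of genes above background in either tissue was also 0.56 higher in spleen, so no test was made of levels between tissues. Within a genotype, day and experiment, the median SD of the 69 members was 0.23 in both tissues, against 0.22 for genes above background in spleen and 0.25 in blood. Among the 69 above background, the steadiest member in spleen was Mrps30 (SD 0.12) and the most variable were Mrpl52 (0.55), Mrpl20 (0.53) and Mrps18c (0.49). The spreads in spleen include 3 day 15 spleens of experiment I that lay nearer the other day, described below. For Mrpl20 these 3 had 10.23 to 10.42, against 7.92 to 8.72 in the other 9 day 15 spleens of experiment I. For Mrpl52 it was 11.02 to 11.12 against 8.69 to 9.77, and for Mrps18c 10.29 to 10.46 against 8.29 to 9.48. Members moved together only loosely from array to array within a genotype, day and experiment, with the same 3 included in spleen. The median correlation between pairs of members over 48 arrays was 0.13 in spleen and 0.30 in blood. In spleen, pairs of large subunit genes had 0.15, pairs of small subunit genes 0.09 and mixed pairs 0.13. Genes of the proliferation list had a median pair correlation of 0.68 in the same spleens, and cytosolic ribosomal protein genes had 0.10. All these pairs share arrays and their normalisation, and the values are descriptions.

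Over both days, 4 of the 76 members were higher in mutant than in wild type spleen and 0 were lower, each by about the same small amount. They were Mrpl28 and Mrpl27 of the large subunit and Mrps11 and Mrps28 of the small subunit. In the same comparison 10.5% of all genes were called (5.66% higher and 4.88% lower), against 5.26% of the members higher and 0 lower. The members' share was thus close to that of all genes in the higher direction and below it over both directions. The promoters of those that the RefSeq table holds (GRCm38.p6, plus strand) are shown from 250 bases before to 50 after the start, because these are the members that differed in spleen, with Mrpl33 as the member that differed in blood. Capitals mark matches, on either strand, to the motifs of NRF1 (its core CGCNTGCG), ETS factors such as GABPA (CCGGAAG), YY1 (AAGATGGC) or the E-box bound by MYC (CACGTG). None of the motifs contains another, and they were chosen because the factors are known regulators of nuclear genes for mitochondria or of growth. Mrpl28 is at chr17:26123253-26123552, Mrps11 at chr7:78782881-78783180, Mrpl27 at chr11:94653541-94653840 and Mrpl33 at chr5:31613701-31614000.
Mrpl28: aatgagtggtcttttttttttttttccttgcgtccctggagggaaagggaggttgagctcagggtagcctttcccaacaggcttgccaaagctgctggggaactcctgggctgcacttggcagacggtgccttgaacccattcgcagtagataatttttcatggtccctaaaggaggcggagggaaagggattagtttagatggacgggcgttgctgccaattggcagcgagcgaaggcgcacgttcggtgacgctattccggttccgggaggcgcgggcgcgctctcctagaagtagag
Mrps11: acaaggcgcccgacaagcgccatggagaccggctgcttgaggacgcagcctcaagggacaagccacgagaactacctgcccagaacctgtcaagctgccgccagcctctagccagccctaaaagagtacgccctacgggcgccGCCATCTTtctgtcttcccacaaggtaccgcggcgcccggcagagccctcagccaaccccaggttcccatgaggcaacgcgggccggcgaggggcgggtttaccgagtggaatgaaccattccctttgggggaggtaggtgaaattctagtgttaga
Mrpl27: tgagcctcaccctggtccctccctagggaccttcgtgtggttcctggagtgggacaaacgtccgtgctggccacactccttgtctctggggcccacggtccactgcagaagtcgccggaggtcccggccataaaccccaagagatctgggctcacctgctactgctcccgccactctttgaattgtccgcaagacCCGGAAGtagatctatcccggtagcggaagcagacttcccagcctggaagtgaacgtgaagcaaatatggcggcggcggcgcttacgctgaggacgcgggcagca
Mrpl33: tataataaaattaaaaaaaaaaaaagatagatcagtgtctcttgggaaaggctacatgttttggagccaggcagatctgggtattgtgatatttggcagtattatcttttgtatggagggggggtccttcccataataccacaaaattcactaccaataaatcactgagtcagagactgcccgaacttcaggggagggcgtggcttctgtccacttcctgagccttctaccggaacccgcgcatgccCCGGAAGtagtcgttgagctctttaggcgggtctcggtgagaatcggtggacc

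Mrpl27 and Mrpl33 held the ETS motif, Mrps11 held the YY1 motif on the minus strand, and the window of Mrpl28 held none of the 4 motifs. Promoters were found for 67 of the 76 members. The ETS motif was in 26 of these 67 genes (38.8%), against 9.93% of the 27025 genes in the table, the NRF1 core in 19 (28.4%, against 9.22%) and the YY1 motif in 12 (17.9%, against 3.19%). A gene with several promoters was counted where any of them held the motif. A form of the NRF1 motif longer by 1 base at each end was in 12 members (17.9%, against 5.19%). The E-box was in 5 (7.46%, against 8.09%). Member promoters also had more G and C, with a median of 58.3% against 52.7% for all genes, and whether that accounts for the shares was not tested. A match is a run of letters, and no binding was measured.

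Mrpl28, a large subunit protein, had the smallest adjusted p. At day 15 its lowest, median and highest values were 10.93, 11.27 and 11.50 in mutant spleens, against 10.81, 11.10 and 11.39 in wild type spleens. At day 44 they were 11.24, 11.40 and 11.64 in mutant spleens, against 10.65, 11.16 and 11.37 in wild type spleens. The groups overlapped at both days, but 22 of 24 mutant spleens lay above the wild type median of the same day and experiment. Over both days Mrpl28 was 1.17-fold higher (0.23 ± 0.05, adjusted p = 0.0022), and the experiments gave 0.21 (I) and 0.24 (II).

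Mrps11, a small subunit protein with a bacterial counterpart that binds the ribosomal RNA, followed. Its lowest, median and highest values at day 15 were 8.89, 9.20 and 9.48 in mutant spleens, against 8.70, 8.94 and 9.29 in wild type spleens. At day 44 they were 8.86, 9.21 and 9.74 in mutant spleens, against 8.54, 8.97 and 9.32 in wild type spleens. The ranges overlapped at each day, and 21 of 24 mutant spleens lay above the matching wild type median. The difference was 0.22 ± 0.05 (1.16-fold, adjusted p = 0.00466), and it was 0.22 in each experiment. A second, dimmer Mrps11 probe gave 0.18 ± 0.07 and did not pass (adjusted p = 0.108).

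Mrps28, a small subunit protein, had values of 8.84, 9.27 and 9.55 (lowest, median and highest) in mutant spleens at day 15, against 8.82, 9.02 and 9.38 in wild type spleens. At day 44 it had 8.999, 9.57 and 9.86 in mutant spleens, against 8.92, 9.28 and 9.54 in wild type spleens. Again the ranges overlapped, with 20 of 24 mutant spleens above the matching wild type median and a difference of 0.21 ± 0.06 (adjusted p = 0.0188). Mrpl27, whose bacterial counterpart reaches into the site where peptide bonds are formed, had 8.96, 9.19 and 9.86 in mutant spleens at day 15, against 8.84, 9.03 and 9.65 in wild type spleens. At day 44 it had 9.12, 9.55 and 10.18 in mutant spleens, against 8.90, 9.28 and 9.81 in wild type spleens. For Mrpl27, 22 of 24 mutant spleens lay above the matching wild type median, and the difference was 0.22 ± 0.07 (adjusted p = 0.0334).

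The next member, Mrpl12, a stalk protein of the large subunit that in human cells has also been found on the mitochondrial RNA polymerase, did not pass (0.17 ± 0.07, adjusted p = 0.13). In 1 fit of both tissues with the mouse as a random block, 2 members were called in spleen (9.56% of all genes), Mrps11 (adjusted p = 0.00222) and Mrpl28 (adjusted p = 0.00763), while Mrps28 had 0.114 and Mrpl27 0.162. Mrpl28 and Mrps11 were also the 2 members called without the 4 spleens of experiment I that lay nearer the other day, described below (adjusted p = 0.0123 and 0.0132, with 9.61% of all genes called). Without the 6 spleens with pancreatic transcripts the same 4 members were called (8.94% of all genes). Experiment I alone called 0 of 76 members by limma, with 5 at an unadjusted p under 0.05 and 3.5% of all genes called. Experiment II alone called 4 (7.94% of all genes), which were Mrps11, Mrpl27 and Mrpl20 as higher and Mrps23 as lower.

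**Figure D1:**
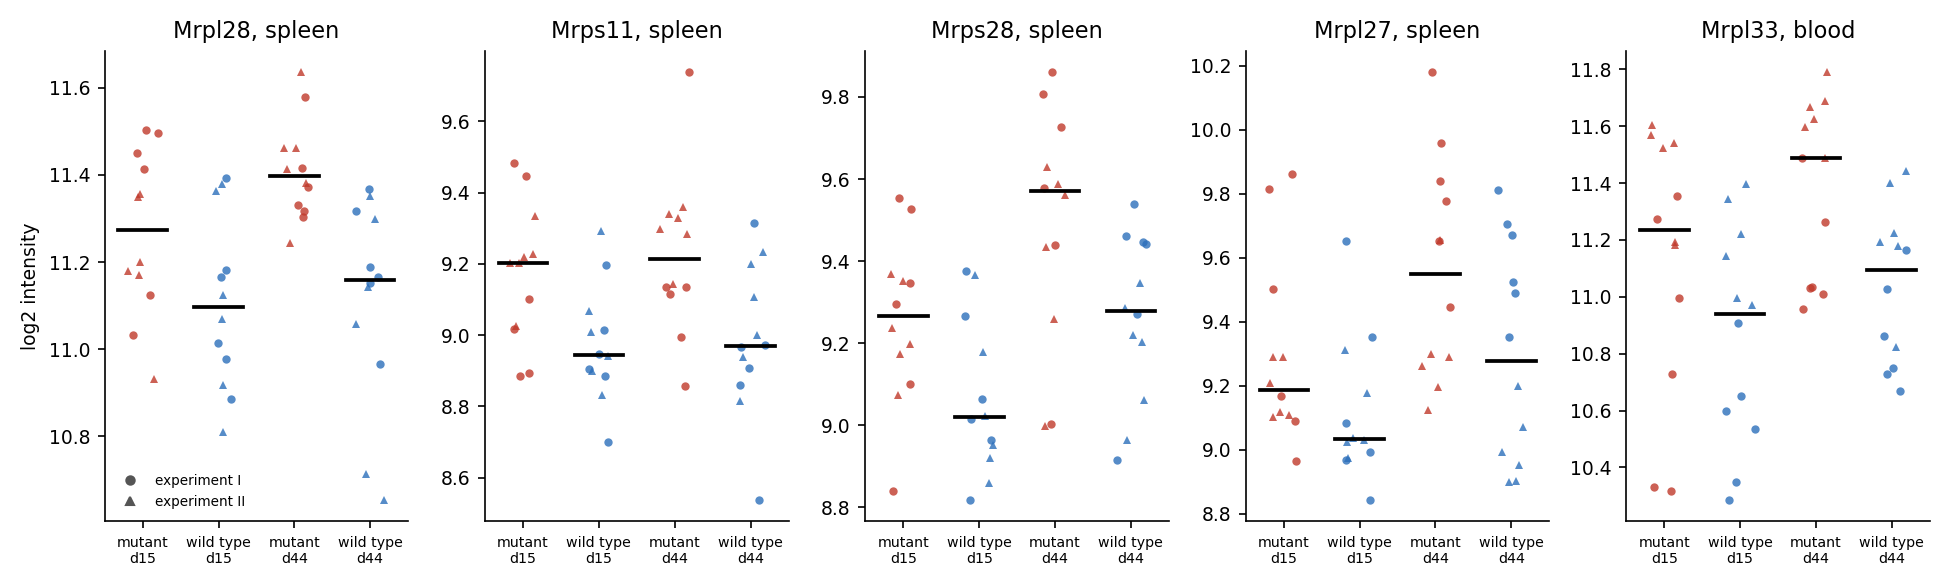
Log2 intensity per array of the 4 members called in spleen and of Mrpl33 in blood, by genotype and day, with 12 mice per group (circles, experiment I; triangles, experiment II) and black bars at the group medians. Mutant and wild type groups overlap in every panel, and each mutant median lies above the wild type median of its day.

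The differences of all 76 members in spleen had a median of 0.03 and ran from -0.17 for Mrpl4 to 0.32 for Mrpl20, neither of which passed (adjusted p = 0.403 for Mrpl4). Above 0 were 48 of 76 members, and 13 had an unadjusted p under 0.05. The median was 0.05 for the 47 large subunit genes and 0.02 for the 29 small subunit genes, with 2 called in each. Over all genes the median was -0.01. Fewer cells of a type and less RNA per cell cannot be told apart in whole tissue, and the cell type markers given above moved in the same spleens by far larger amounts. The summed intensity of the 8 granulocyte precursor genes was 9820 to 50400 in mutant and 3990 to 21000 in wild type spleens at day 15, and 29800 to 77800 in mutant and 4720 to 30000 in wild type spleens at day 44. That of the 7 red cell precursor genes was 15500 to 33600 in mutant and 9940 to 26300 in wild type spleens at day 15, and 16100 to 33600 in mutant and 11600 to 26300 in wild type spleens at day 44. That of the 6 T cell genes was 3710 to 7180 in mutant and 5780 to 9160 in wild type spleens at day 15, and 2820 to 4720 in mutant and 4870 to 9370 in wild type spleens at day 44. Their part in the 4 calls was not tested.

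Proliferation genes rose in the same spleens. Of 44 genes of replication and mitosis, 34 rose in mutant spleen and 0 fell, with a median of 0.60, or 1.51-fold. Examples are Mcm10, a factor that starts replication (0.84 ± 0.13, adjusted p = 5.96e-06), Cdc45, a part of the replicative helicase (0.76 ± 0.11, adjusted p = 3.98e-06), and Kif11, the motor that separates spindle poles (0.69 ± 0.10, adjusted p = 4.74e-06). The upper 95% limit of the difference lay below 0.60 for 75 of the 76 members, the exception being Mrpl20 with a limit of 0.66. For 56 members the whole interval lay within 1.2-fold in either direction. All members at background are among these 56, and a change in them may not show here. The share of all genes within such limits was not counted. The median standard error in spleen was 0.07 for the members and 0.04 for all genes.

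**Figure D2:**
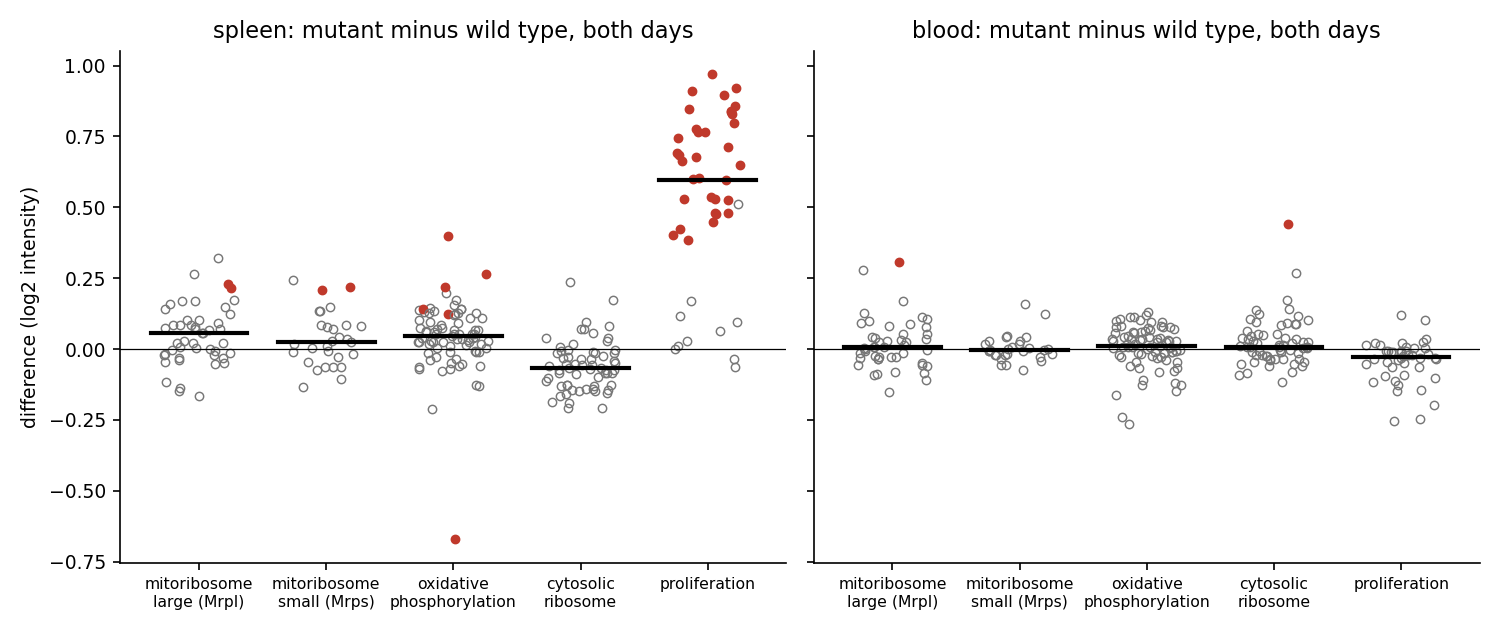
Log2 difference of mutant minus wild type over both days for each gene of 5 lists, in spleen (left) and blood (right), with filled red points for called genes, open points for the others and bars at the medians. In spleen the members lie around 0 with 4 called, whereas 34 of 44 proliferation genes were called higher; in blood both lie around 0.

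The rest of the mitochondrial translation machinery gave few calls in mutant spleen. Of 4 further subunits of the mitochondrial ribosome with other symbols, Dap3, a GTP-binding small subunit protein, was called higher (0.12 ± 0.04, adjusted p = 0.0348), and Chchd1, Ptcd3 and Gadd45gip1 were not called. Of 23 assembly factors limma called 0, with 4 at an unadjusted p under 0.05 (median 0.02), and of 14 translation factors it called 0, with 2 at that level (median 0.01). Of 19 genes that charge mitochondrial tRNAs 1 was called, Gars, which serves both the cytosol and the mitochondria (0.21 ± 0.07, adjusted p = 0.0388). Genes for transcription and copying of mitochondrial DNA had 0 of 12 called and 2 at an unadjusted p under 0.05, with 11 of 12 below 0 and a median of -0.06. Tfam, which packs and transcribes mitochondrial DNA, had -0.16 ± 0.06 (adjusted p = 0.074). Of 11 regulators of mitochondrial biogenesis 0 were called and 2 had an unadjusted p under 0.05, where Myc had 0.01 ± 0.06 (adjusted p = 0.954) and Nrf1 0.23 ± 0.10 (adjusted p = 0.155).

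Subunits of oxidative phosphorylation, the complexes that hold the products of mitochondrial translation, had 5 of 79 genes higher and 1 lower (median 0.05). The lower one was Cox6a2, the heart and muscle form of a cytochrome oxidase subunit (-0.67 ± 0.08, adjusted p = 1.79e-07). Among the higher ones were Cox6b2, the testis form of another cytochrome oxidase subunit (0.40 ± 0.10, adjusted p = 0.00517), Atp5o of the ATP synthase (0.26 ± 0.08, adjusted p = 0.0257) and Ndufv2 of complex I (0.12 ± 0.04, adjusted p = 0.0314). Cytosolic ribosomal proteins, the counterpart of the members outside mitochondria, had 0 of 63 called and 9 at an unadjusted p under 0.05, with 51 of 63 below 0 and a median of -0.07.

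At day 15 alone 0 of 76 members were called in spleen, where 2.47% of all genes and 26 of 44 proliferation genes were called. The smallest p was that of Mrps11 (0.20, unadjusted p = 0.015), and 4 members had an unadjusted p under 0.05. Mrps28 (0.19) and Mrpl28 (0.16) were higher at that level too, as was Mrpl32 (0.08), which is at background. At day 44 alone 1 member was called, Mrpl28, at 1.23-fold (0.30 ± 0.08, adjusted p = 0.0119), where 5.19% of all genes were called. Mrps11 came next with 0.24 ± 0.08 (adjusted p = 0.0602). In 1 fit of both tissues with the mouse as a random block, 2 members were called at day 44 (4.79% of all genes), and in experiment II alone 6 (6.07% of all genes). No member had a genotype difference that changed between the days by the test of that change (0 of 76, with 0% of all genes called and 0 members with an unadjusted p under 0.05). The median difference of the members was 0.02 at day 15 and 0.06 at day 44. In blood that test called 0 of 76 members as well (0.00603% of all genes), and 4 had an unadjusted p under 0.05, with the smallest p for Mrpl51 (-0.19 ± 0.07, adjusted p = 0.427).

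In blood, Mrpl33 was the only member called over both days, where 1.13% of all genes were called. Mrpl33 is a small protein of the large subunit with a bacterial counterpart. Its lowest, median and highest values at day 15 were 10.32, 11.23 and 11.60 in mutant blood, against 10.29, 10.94 and 11.40 in wild type blood. At day 44 they were 10.96, 11.49 and 11.79 in mutant blood, against 10.67, 11.10 and 11.44 in wild type blood. The groups overlapped over both experiments, and 22 of 24 mutant samples lay above the wild type median of the same day and experiment. The difference was 0.31 ± 0.07 (1.24-fold, adjusted p = 0.008), and the experiments gave 0.27 (I) and 0.34 (II).

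A second Mrpl33 probe of nearly the same brightness gave 0.34 ± 0.08 in blood (adjusted p = 0.0216). In spleen the Mrpl33 probes gave 0.12 ± 0.06 (adjusted p = 0.305) and 0.11 ± 0.08 (adjusted p = 0.572), so neither passed there. The difference between the tissues was itself tested within mice and did not pass for Mrpl33 (spleen minus blood -0.19 ± 0.09, adjusted p = 0.317). At day 15 alone 0 members were called in blood by limma and 3 had an unadjusted p under 0.05, where 0.145% of all genes were called. At day 44 Mrpl33 was called just under the threshold (0.35 ± 0.10, adjusted p = 0.04995, with 1.43% of all genes called), and that call was lost under 5 of 11 alternatives. Experiment I alone called 0 members in blood over both days, with 1 at an unadjusted p under 0.05 and 0.108% of all genes called, and experiment II alone called 3 (4.08% of all genes).

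The 4 members called in spleen had small differences in blood. Mrpl28 had -0.01 (95% interval -0.15 to 0.13), Mrps11 had 0.04 (-0.06 to 0.14), Mrps28 had 0.00 (-0.20 to 0.21) and Mrpl27 had 0.17 (-0.06 to 0.40). None of the 76 members passed the test of spleen minus blood within mice, where 4.11% of all genes and 31 of 44 proliferation genes passed. The smallest p was that of Mrpl28 (0.24 ± 0.10, adjusted p = 0.221), and 7 members had an unadjusted p under 0.05. It is therefore not shown that the genotype differences of these members differ between the tissues. The median over the members in blood was -0.00, and 38 of 76 were above 0. Granulocyte precursor markers also rose in mutant blood (5 of 8 called, median 1.21), with a summed intensity of 1210 to 5850 in mutant and 726 to 2040 in wild type blood at day 15, and of 2600 to 12400 in mutant and 774 to 4850 in wild type blood at day 44. Of these 8 genes, Ctsg and Mpo were at background in blood. Their part in the Mrpl33 call was not tested.

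The rule set the members against proliferation in mutant spleen. For the slopes a score per array, the mean of the values of the 44 proliferation genes standardised over the 24 mutant spleens, was used, which ran from -1.21 to 0.74. With day and experiment as terms, 0 of 76 members had a called slope on this score, where 3.59% of all genes had one, and 8 members had an unadjusted p under 0.05. The largest slope among the 5 smallest p-values was that of Mrps18c, of the small subunit (0.52 ± 0.21 per score unit, adjusted p = 0.195). Mrpl22, whose bacterial counterpart lines the exit tunnel, had 0.27 ± 0.09 (adjusted p = 0.125), Mrps22, mutated in a human mitochondrial disease, had 0.23 ± 0.09 (adjusted p = 0.199), and Mrps6 had a negative slope of -0.31 ± 0.11 (adjusted p = 0.157). The median slope of the members was 0.05, against 0.49 for the proliferation genes themselves, which make up the score.

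The mean of the 69 members above background differed little between spleens. At day 15 its lowest, median and highest values were 9.38, 9.47 and 9.65 in mutant spleens, against 9.35, 9.49 and 9.65 in wild type spleens. At day 44 they were 9.37, 9.47 and 9.87 in mutant spleens, against 9.33, 9.45 and 9.63 in wild type spleens. The groups overlapped almost fully, whereas the mean of the proliferation genes had a median of 8.96 in mutant and 8.22 in wild type spleens at day 15, and of 9.25 in mutant and 8.68 in wild type spleens at day 44. A second score, standardised over all 48 spleens, ran from -0.49 to 0.99 in mutant and from -1.52 to 0.84 in wild type spleens. Over the 24 mutant spleens, with day and experiment removed, the members' mean and this second score had a Pearson r of 0.25 and a Spearman rho of 0.41. Without the 2 spleens farthest from the median score r was 0.29. Within experiment I r was 0.34 and within experiment II it was 0.38, with 12 spleens each. These are descriptions of arrays that share 1 normalisation.

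With the same score over 48 spleens as a further term in their fit, 0 of 76 members had a called genotype difference, where 0.44% of all genes had one. No member had an unadjusted p under 0.05 there, and the median over the members was -0.00. The score itself differed between the genotypes, so score and genotype share part of their variation in this fit. The smallest p in this limma fit was that of Mrps30 (0.10, adjusted p = 0.779). None of the 4 members called without the score was called with it. Mrps11, the second of these 4, had 0.09 ± 0.07 (adjusted p = 0.911) with it.

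**Figure D3:**
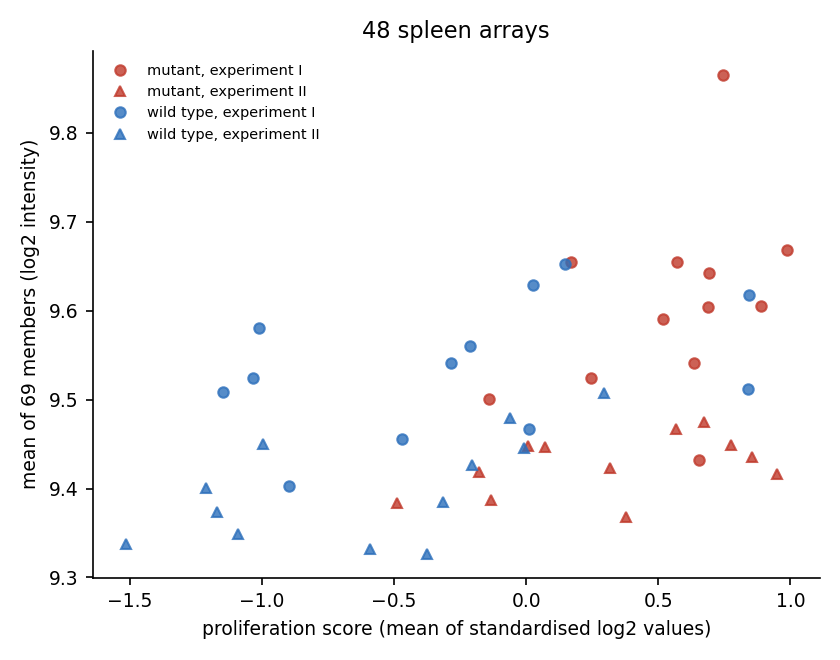
Mean log2 intensity of the 69 members above background against the proliferation score standardised over the 48 spleen arrays, with mutant in red and wild type in blue (circles, experiment I; triangles, experiment II). Scores run from -0.49 to 0.99 in mutant and from -1.52 to 0.84 in wild type spleens, and the members' means overlap between the genotypes.

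Between the days the members moved far more in spleen than between the genotypes, in both directions, with calls in experiment I and none in experiment II. At day 44, 19 members were higher and 16 lower than at day 15, 35 of 76 in all, or 46.1%, where 22.9% of all genes were called (11.5% higher and 11.4% lower). The members are bright, and whether other genes of like brightness were called as often was not tested. Experiment I alone called 40 members (30.8% of all genes), and experiment II alone called 0 of 76 by limma, with 12 at an unadjusted p under 0.05 (0.00603% of all genes called). The median size of the difference, without its sign, was 0.29 across the members for experiment I, but 0.07 for experiment II, and over all genes it was 0.08 for experiment I and 0.04 for experiment II. Of the 35 called members, 28 had the same direction in experiment II. Experiment II was part of the fit that called them, so a shared direction is partly built in. The share among all called genes was not counted. Without the 6 spleens with pancreatic transcripts 10 members were called, 6 higher and 4 lower, with 5.77% of all genes called. All 35 members kept their direction, which is partly built in too, since the remaining spleens were in the fit that called them. The 10 were among the 35. The removed spleens were nearly all of experiment I, and none was among the spleens that lay nearer the other day, described below. Their removal therefore also raised the share of those spleens at day 15 of experiment I. The cause of the fall in calls was not tested.

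The members named by their p-value that were higher at day 44 were Mrpl2, Mrpl20, Mrpl49, Mrps24, Mrps26 and Mrpl52. In experiment I, Mrpl20, a large subunit protein whose bacterial counterpart binds early in assembly, had lowest, median and highest values of 9.48, 10.13 and 10.62 at day 44, against 7.92, 8.42 and 10.42 at day 15. In experiment II the medians of Mrpl20 were 8.27 at day 44 and 8.09 at day 15. Over both experiments the difference was 0.75 ± 0.17 (1.68-fold, adjusted p = 0.00188), while the experiments gave 1.30 (I) and 0.19 (II). Mrpl2, whose bacterial counterpart lies close to the site of peptide bond formation, had 10.49, 11.04 and 11.21 at day 44 of experiment I, against 9.17, 9.56 and 11.41 at day 15 (difference over both experiments 0.64 ± 0.14, adjusted p = 0.00174). Mrpl52 had 0.67 ± 0.16 (adjusted p = 0.00225), Mrpl49 0.35 ± 0.08 (adjusted p = 0.00197), Mrps26 0.31 ± 0.07 (adjusted p = 0.00214) and Mrps24 0.29 ± 0.07 (adjusted p = 0.00205). A second, dimmer Mrps26 probe gave 0.06 ± 0.05 and did not pass (adjusted p = 0.461). The other Mrpl49 probes, dimmer but above background, gave 0.01, 0.10 and -0.09, and none passed (adjusted p = 0.925, 0.186 and 0.189).

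Lower at day 44 were Mrps6, Mrpl4, Mrps18b, Mrpl37, Mrps16 and Mrps12. Mrps6, a small subunit protein with a bacterial counterpart, had lowest, median and highest values of 7.41, 7.72 and 7.90 at day 44 of experiment I, against 7.66, 8.25 and 8.96 at day 15, and a difference over both experiments of -0.41 ± 0.09 (adjusted p = 0.00131). Mrpl4, whose bacterial counterpart lies along the exit tunnel, had 7.62, 7.97 and 8.56 at day 44 of experiment I, against 8.01, 8.89 and 9.44 at day 15 (-0.44 ± 0.10, adjusted p = 0.00257). Mrpl37 had -0.40 ± 0.10 (adjusted p = 0.00314), Mrps18b had -0.28 ± 0.07 (adjusted p = 0.00259), Mrps16, mutated in a human mitochondrial disease, had -0.26 ± 0.07 (adjusted p = 0.00445), and Mrps12, of the decoding centre, had -0.30 ± 0.08 (adjusted p = 0.00455). Dimmer second probes of Mrpl37 (-0.16 ± 0.05, adjusted p = 0.0311) and Mrps18b (-0.24 ± 0.07, adjusted p = 0.0106) also passed. The days overlapped in experiment I for each of Mrpl20, Mrpl2, Mrps6 and Mrpl4, through a few spleens.

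**Figure D4:**
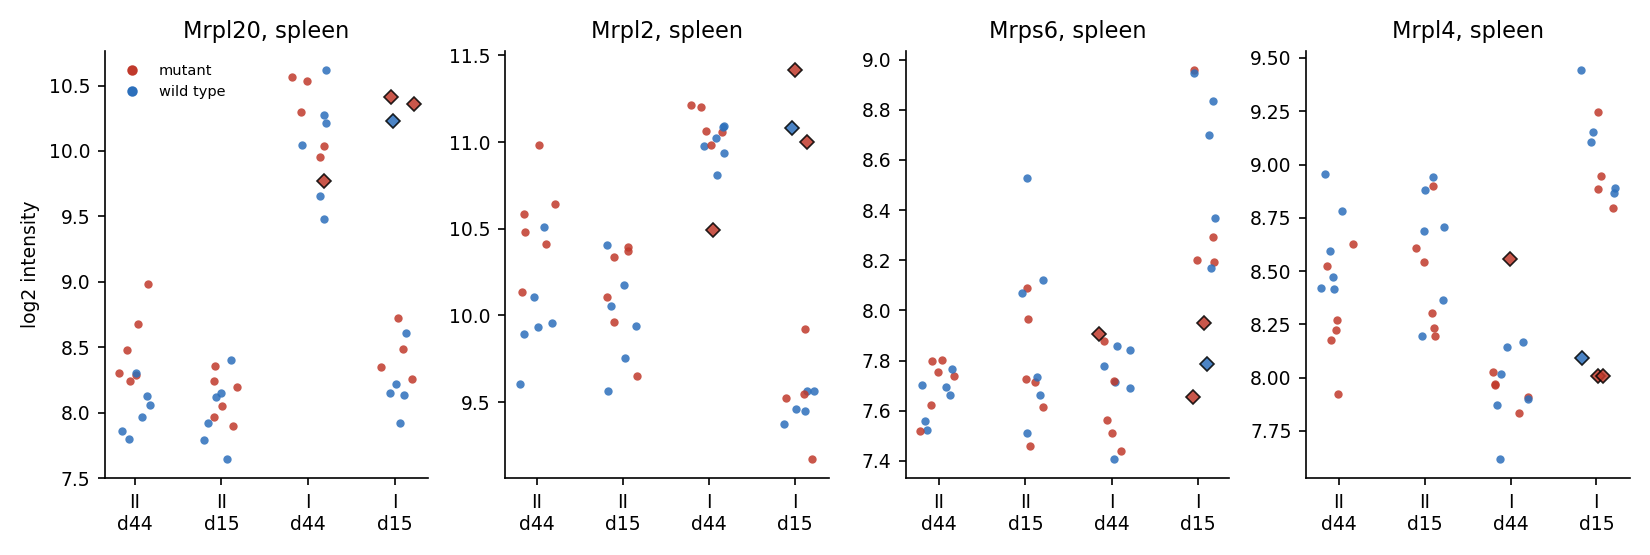
Log2 intensity per spleen array of 2 members higher and 2 members lower at day 44, by experiment (II left, I right) and day (44 left of 15), with mutant in red and wild type in blue. Outlined diamonds mark the 4 spleens of experiment I that lay nearer the other day over all other genes; the 3 at day 15 lie in or near the range of the day 44 spleens.

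For Mrpl20, Mrpl2, Mrps6 and Mrpl4, the day 15 spleens that overlapped with day 44 in experiment I stood apart over other genes too. Over all genes above background that are no members, 4 of the 24 spleens of experiment I correlated better with the spleens of the other day than with those of their own. Of these, 3 were day 15 spleens (mutant replicates 3 and 6 and wild type replicate 6) and 1 was a day 44 spleen (mutant replicate 4), and none of the 4 was among the spleens with pancreatic transcripts. The day comparison was not repeated without them, because they were picked by how they lay between the days. For Mrpl20, Mrpl2, Mrps6 and Mrpl4, 0 of the other 9 day 15 spleens of experiment I lay within its day 44 range. For 24 of the 35 members called for day, the 3 day 15 spleens all lay within the range of the day 44 spleens of experiment I. For each other member of the 35, 2 of the 3 lay within it. The third lay beyond that range on the side away from the other 9 day 15 spleens, except for Mrps6. For Mrpl2, for example, the highest of the 3 was 11.41, against a highest day 44 value of 11.21. For Mrps6 the highest of the 3 was 7.948, against a highest day 44 value of 7.904. For 16 of these 24, at most 1 of the other 9 day 15 spleens lay in that range. For the remaining 8 (Mrpl14, Mrpl24, Mrpl27, Mrpl30, Mrpl36, Mrps16, Mrps21 and Mrps28), 2 to 9 of the others did. In these 8 the day 44 range does not separate the 3 spleens from the other 9, though their values could still lie apart. For Mrpl14 the 3 had 9.53 to 9.87 and the other 9 had 10.27 to 10.82. For Mrps28 the 3 had 9.27 to 9.55 and the other 9 had 8.82 to 9.53, which overlap. For Mrpl1, among the 16, these 3 had 10.22 to 10.42 and the 12 day 44 spleens 10.00 to 10.65. The other 9 day 15 spleens of experiment I had 8.72 to 9.02 for Mrpl1. In experiment II, Mrpl1 had medians of 8.88 at day 44 and 8.89 at day 15. The high values of Mrpl1 were thus those of the 12 day 44 and 3 of the day 15 spleens of experiment I, and the remaining 9 lay near the level of experiment II. Other members differed in this. For Mrps6 the 9 had 8.17 to 8.96, while experiment II had medians of 7.70 at day 44 and 7.73 at day 15. For Mrps24 the 9 had 12.20 to 12.75, against medians of 11.87 at day 44 and 11.73 at day 15 in experiment II. The labels give no extraction batch, plate or array position within an experiment, so a batch of this kind and the day cannot be told apart.

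Whether the day difference itself differed between the experiments was tested in a fit chosen after the values were seen. In spleen it differed for 29 of 76 members, 15 in the positive and 14 in the negative direction, where 15.2% of all genes differed. In blood it differed for 0 of 76 members (0.0904% of all genes), with 11 at an unadjusted p under 0.05. In blood 0 members were called between the days (0.0783% of all genes), although 18 had an unadjusted p under 0.05, and the median size of the difference was 0.07. Experiment II alone called 14 members in blood, where 4.8% of all genes were called, and experiment I alone called 0, with 10 at an unadjusted p under 0.05. In 1 fit of both tissues with the mouse as a random block, 1 member was called in blood (0.259% of all genes). The smallest p was that of Mrpl10 (-0.19 ± 0.04, adjusted p = 0.0639), a stalk base protein of the large subunit.

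**Figure D5:**
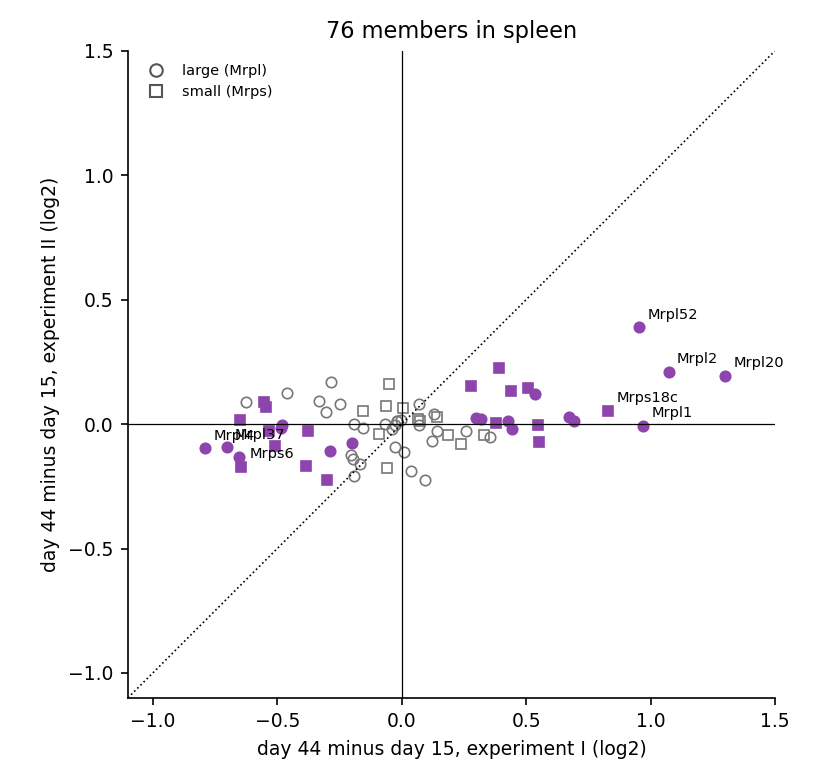
Log2 difference of day 44 minus day 15 in spleen for the 76 members, in experiment I (horizontal axis) and experiment II (vertical axis), with filled points for members called over both experiments and the dotted line at equal differences. The points spread along the horizontal axis, with a median size of 0.29 for experiment I and 0.07 for experiment II.

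The experiments themselves differed more than the genotypes did, or than the days did over both experiments. In spleen 14 members were higher and 35 lower in experiment II than in experiment I (55.1% of all genes called, 28.9% higher and 26.2% lower), and in blood 32 were higher and 26 lower (65.5% of all genes called, 36.2% higher and 29.3% lower). The median size of this difference was 0.25 in spleen and 0.35 in blood, against 0.07 and 0.03 for genotype and 0.16 and 0.07 for day. In experiment I alone the day difference in spleen had a median size of 0.29, above that of experiment. Since the day difference in spleen differed between the experiments for 29 members, their experiment difference also differed between the days. Mrps24, the brightest member, was 2.02-fold lower in spleen in experiment II (-1.02 ± 0.07), and Mrps21 was 1.72-fold higher (0.78 ± 0.09). In blood Mrps23 was higher in experiment II (0.77 ± 0.05) and Mrpl38 lower (-0.98 ± 0.09). Kits, storage and any other change between the experiments cannot be told apart.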

How the data were processed

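The deposited values are 1 normalised bead array intensity per probe and sample on a linear scale. The design had assumed log2 values, so log2 was taken first. All arrays of a tissue share nearly 1 distribution (median 82.2 in spleen, 73.4 in blood), which is quantile normalisation within the tissue. Limma is the only tool that the submitters' processing notes name, and background correction is not given in the sources used here. Precision is limited by the number of arrays. Of the probes, 23978 had 1 gene symbol, 0 had several and 1719 had none. All 76 members matched the reference gene table by Entrez identifier with the same symbol.

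Each tissue was fitted with limma 3.58.1 (lmFit, eBayes; R 4.3.3, statmod 1.5.0) with 4 groups and experiment as terms, over 16593 genes. The steps were tested on simulated data. Named members are those with the smallest adjusted p in each comparison, up to 12 in each direction for genotype in spleen and up to 6 elsewhere, or the 5 smallest where fewer passed. The NRF1 core was shortened after the counts of its longer form were seen. Mrpl1, Mrpl20 in its interval and the spleens nearer the other day were singled out after their values were seen. Mouse numbers in the titles tie each spleen to a blood sample; residuals of the same mouse correlated with a median of 0.0947 (-0.415 to 0.338, over 0.1 in 23 of 48 mice). The members, the lists and the rule were chosen with earlier results of these data known.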

Additional observations from a re-analysis of the deposited data

Results flagged for a closer look

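The day difference in spleen differed between the experiments for 29 members, by the test of a day by experiment term that was chosen after the values were seen. All 29 values are the day 44 minus day 15 difference in experiment I minus that in experiment II, on the log2 scale, at a limma adjusted p under 0.05. Each group held 12 mice, so single arrays were not tested as outliers.

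Among genes named for the large subunit, the positive differences were those of Mrpl20 (1.11), Mrpl1 (0.98), Mrpl2 (0.86), Mrpl49 (0.68), Mrpl50 (0.65), Mrpl38 (0.46), Mrpl27 (0.41), Mrpl15 (0.41), Mrpl13 (0.28) and Mrpl51 (0.22). The negative ones were those of Mrpl54 (-0.72), Mrpl4 (-0.69), Mrpl37 (-0.61), Mrpl43 (-0.59), Mrpl36 (-0.48), Mrpl55 (-0.45) and Mrpl58 (-0.33).

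Among genes named for the small subunit, the positive differences were those of Mrps18c (0.78), Mrps31 (0.62), Mrps34 (0.55), Mrps33 (0.38) and Mrps7 (0.37). The negative ones were those of Mrps18a (-0.67), Mrps35 (-0.64), Mrps21 (-0.62), Mrps27 (-0.51), Mrps6 (-0.47), Mrps12 (-0.42) and Mrps23 (-0.35). The smallest adjusted p was that of Mrps35 (0.000837). Mrpl27, which was called for genotype in spleen, is among the 29, and its genotype difference was 0.23 (experiment I) and 0.20 (experiment II).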

How the results depend on the processing

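Several counts of called members changed with the setting. For genotype in spleen over both days (4 members called), experiment I alone gave 0, and the joint fit of both tissues with the mouse as a random block and the removal of the spleens nearer the other day, an alternative added after seeing the data, gave 2 each; at day 44 (1 called), experiment I alone gave 0, experiment II alone 6, and genes above the median probe, the block and the compared groups alone 2 each. For day in spleen (35 called), the fit without an experiment term gave 16, experiment II alone 0, the removal of spleens with pancreatic transcripts 10, and that removal within experiment I, also added later, 11. In blood, genotype over both days (1 called) had 0 without an experiment term and in experiment I, 3 in experiment II and 2 with array weights; day 15 (0 called) had 1 in experiment II; day 44 (1 called) had 0 with every probe, with normexp (offset 50), without an experiment term, in experiment I and with trend and robust, and 5 in experiment II; day (0 called) had 14 in experiment II, 2 with array weights and 1 each with the block and with genes above the median probe; the change of the genotype difference between the days (0 called) had 6 in experiment II. Spleen minus blood (0 called) had 1 in experiment II. The relation to proliferation (0 called) had 4 without day and experiment terms and 1 in experiment II. Among the named members' alternatives, 682 kept direction and side of the threshold, 44 lost the call, 14 gained it and 4 changed direction: Mrps15 in its relation to proliferation in experiment I (-0.0011) and, with proliferation as a term in experiment II, Mrpl52 (0.085), Mrps18a (-0.033) and Mrpl49 (0.028). The causes were not tested. The pairing of spleen and blood within mice was part of the spleen minus blood test. For the comparisons within a tissue it entered through 1 fit of both tissues with the mouse as a block. Under that fit 4 calls of named members changed. The joint fit and the block were not tried apart, and the block had a consensus correlation of 0.0163. For the 7 members at background, and for small changes in all members, the signal and the number of arrays limit what can be seen.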
